A study of Xenopus laevis with 8 samples.

Results

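The EBF (COE) genes are the family to which the tested factor itself belongs, and their own transcripts were followed on arrays made to find targets of EBF3. Every non-control probe whose gene name or description in the scanner files names ebf1, ebf2, ebf3, early B-cell factor, coe2, coe3 or Olf-1 was taken, which gave 3 of the 21495 probes. They were ebf2-A (AF040993, Xebf-2; probe A_10_P000235), Xebf-3 (AF040994; probe A_10_P000236) and ebf2-B (AF041138, Xcoe2; probe A_10_P000237). No member probe carries the name ebf1. In the RefSeq annotation of the Xenopus laevis v10.1 assembly, Xebf-2 is a synonym of ebf2.S, Xebf-3 of ebf3.L, and Xcoe2 of both ebf2.L and ebf2.S. Counted by gene name as the files give it, these are 3 of 21478. The X. laevis genome holds L and S copies of many genes, so a probe may read transcripts of both, and which copy each ebf2 probe reads is uncertain.

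EBF proteins are transcription factors with a conserved DNA-binding domain that holds a zinc knuckle, followed by a helix-loop-helix motif through which they form dimers. The founding members are Olf-1/EBF of the mouse, first studied in olfactory neurons and B cells, and Collier of Drosophila. In the frog embryo ebf2 and ebf3 are expressed in differentiating neurons, downstream of the proneural factors of the neurogenin family, and forced expression of either promotes neuron differentiation. The question put to the members here is whether activating EBF3 protein was followed by a change of the family's own transcripts, in the cells' ebf2 genes and in ebf3.

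The tissue was the animal cap, the roof of the blastula that would become ectoderm, explanted at stage 9. All embryos had received 0.2 ng of mRNA for Noggin, a BMP antagonist that turns caps to a neural fate. In the active EBF3 group the Cy3 channel held RNA of caps with 1 ng of hGR-XEBF3 mRNA, which encodes EBF3 joined to the part of the human glucocorticoid receptor that binds hormone, exposed to 30 µM dexamethasone (DEX) for 4.5 hours. In the DEX control group the Cy3 channel held caps with 0.4 ng of hGR mRNA alone, exposed to DEX in the same way. On the arrays of both groups the Cy5 channel held untreated caps with hGR-XEBF3, in which the fusion protein is present without hormone, so the DEX control arrays compare different constructs as well as DEX with no DEX. Each group had 4 arrays from biological replicates, dyes were not swapped, and a positive log2 ratio, Cy3 over Cy5, means more signal with DEX. Replicates 1 and 2 were hybridised to a design with 1 spot for each probe, with each array on its own slide. Replicates 3 and 4 were hybridised to a design with 2 spots for each probe, with all 4 arrays on 1 slide. Scans were at 10 µm for replicates 1 and 2 and at 5 µm for replicates 3 and 4. Array design, slide layout and scan resolution therefore cannot be told apart. By the scanner software's own flag, 51.8% to 58.9% of the spots of an array rose well above background in Cy3 and 58.6% to 62.9% did so in Cy5, and no spot of the 3 members was flagged as non-uniform or saturated.

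The ebf2-A signal in DEX-treated caps with EBF3 was many times that in the untreated caps hybridised to the same arrays. On the active EBF3 arrays its Cy3 signal was 2407, 3037, 935 and 1177 in replicates 1 to 4, against 157, 128, 24.2 and 80.8 in Cy5. All 8 of these signals were well above background, and Cy3 exceeded Cy5 on each array. The lowest Cy5 signal well above background on these arrays was 146, 77.0, 13.1 and 18.6, so the Cy5 signal of replicate 1 lay close to it. The corresponding log2 ratios were 3.94, 4.56, 5.27 and 3.86, and the pairs of spots on the 2-spot arrays read 5.42 and 5.11 in replicate 3 and 3.96 and 3.77 in replicate 4. On the DEX control arrays the Cy3 signal of ebf2-A was 60.7, 53.0, 3.15 and 14.9, against 88.3, 57.8, 2.47 and 25.2 in Cy5. None of these Cy3 signals was well above background, and of the Cy5 signals that of replicate 4 was. The control log2 ratios, -0.54, -0.13, 0.35 and -0.76, therefore rest mostly on signals near the background, and the groups did not overlap.

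**Figure D1:**
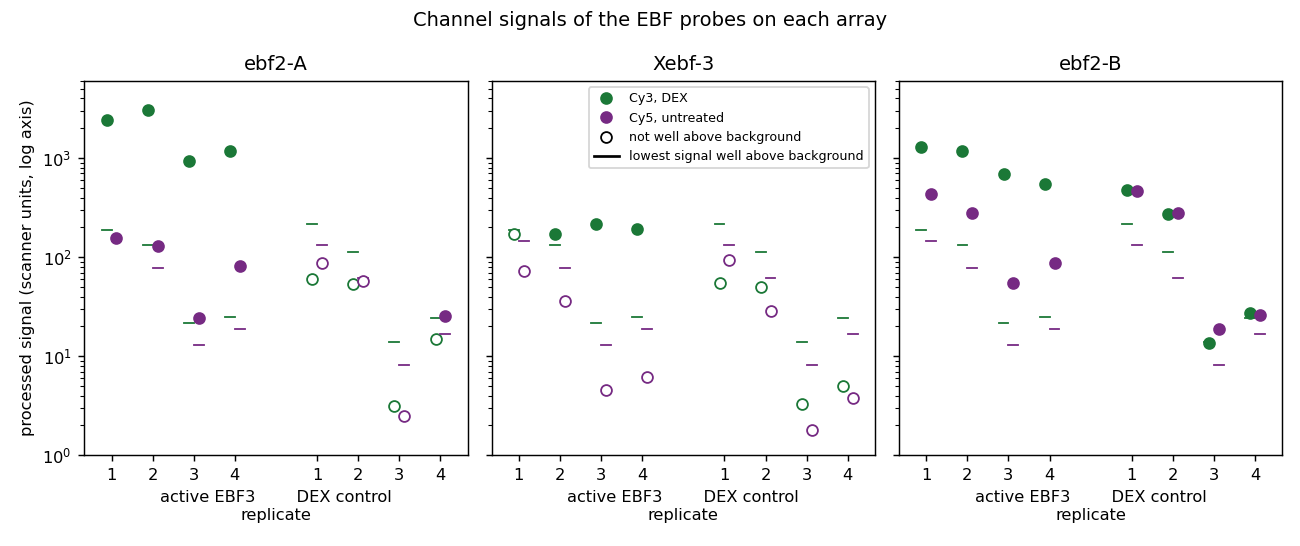
Processed signal of each EBF probe (log axis, scanner units) in the Cy3 channel (caps with DEX) and the Cy5 channel (untreated caps) of the 4 active EBF3 and 4 DEX control arrays. Open circles are signals not well above background and short lines give the lowest signal that was well above it on that array; the Cy3 signals of ebf2-A on the active EBF3 arrays run from 935 to 3037.

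ebf2-A averaged a log2 ratio of 4.41 ± 0.65 on the active EBF3 arrays (SD, n = 4), which is 21.2-fold, and the test against 0 passed (SE 0.26, limma adjusted p = 0.0011). The fold depended on the processing, and with normexp background correction and loess the mean was 2.70, which is 6.48-fold. On the DEX control arrays ebf2-A averaged -0.27 ± 0.49 (SD, n = 4, limma adjusted p = 0.51). The difference between the groups was 4.68 on the log2 scale (SE 0.36, limma adjusted p = 0.00025), and an exact two-sided permutation test of the 8 ratios gave p = 0.0286, the smallest that 4 arrays against 4 allow. That test exchanges arrays freely. With same-numbered arrays kept as pairs, the difference was positive in 4 of 4 pairs for each of the 3 EBF probes, and an exact sign-flip test gave p = 0.125, the smallest that 4 pairs allow. The share of all probes whose groups did not overlap, or whose pairs were all positive, is not given here. Neither trait alone can therefore set the EBF probes apart. Within the 1-spot design the difference was 4.59 and within the 2-spot design it was 4.77, so the designs gave nearly the same value; fitted alone, the 1-spot design, with 2 arrays a group, did not pass (limma adjusted p = 0.070). Because Cy3 was not well above background on any control array, the Cy3 signal itself gives a bound. It was at least 37.1-fold higher on the active EBF3 arrays than on the DEX control arrays, with the dim side held at the lowest signal well above background on each array. Such bounds are taken after scaling average signals between arrays and can carry dye bias.

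The Xebf-3 probe is named for the gene whose coding region was injected as part of the fusion mRNA. Its Cy3 signal on the active EBF3 arrays was 170, 171, 218 and 195 in replicates 1 to 4, against 72.8, 35.9, 4.61 and 6.18 in Cy5. Cy3 was well above background in replicates 2, 3 and 4. Cy5 was well above background on 0 of these 4 arrays. On the DEX control arrays its Cy3 signal was 54.3, 49.6, 3.33 and 5.02, against 93.7, 28.9, 1.78 and 3.75 in Cy5, and neither channel was well above background on any of the 4. The active EBF3 log2 ratios were 1.22, 2.25, 5.56 and 4.98 and the DEX control ones -0.79, 0.78, 0.90 and 0.42. The groups did not overlap, but the 2 replicates of the 1-spot design lay far below those of the 2-spot design.

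That spread decides the test. Xebf-3 averaged 3.50 ± 2.10 on the active EBF3 arrays (SD, n = 4; SE 0.77), and the limma adjusted p was 0.051, just outside the threshold. The difference between the groups was 3.17 on the log2 scale (SE 0.94) and did not pass (limma adjusted p = 0.13), while the exact permutation test gave p = 0.0286. Within the 1-spot design the difference was 1.74 and within the 2-spot design 4.61. The Cy5 signals beside these values were not well above background in either design, and the lowest Cy5 signal that was well above it was 146 and 77.0 on the 1-spot active EBF3 arrays, and 13.1 and 18.6 on the 2-spot ones. Dim signals of both channels were then held at the lowest level well above background. Held so, Cy3 of Xebf-3 averaged 4.73-fold over Cy5 on the active EBF3 arrays as deposited. That value is not a lower bound, because Cy3 of replicate 1 was dim and was itself raised. With the dim Cy5 side alone held, at levels taken after average signals were scaled between arrays, Cy3 was 6.82-fold higher than Cy5. After that scaling, Cy3 of Xebf-3 on the active EBF3 arrays was 3.79-fold higher than on the DEX control arrays, with the dim side held. Neither value is a lower bound, because Cy3 of replicate 1 was not well above background. Both also depend on the scaling. Without replicate 1 the mean on the active EBF3 arrays was 4.26 and passed (limma adjusted p = 0.026). With the array design as a block, the difference of 3.17 passed (limma adjusted p = 0.034), and so did the mean on the active EBF3 arrays (adjusted p = 0.0017).

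The caps in the Cy5 channel of all 8 arrays had received hGR-XEBF3 mRNA, yet the Xebf-3 probe was well above background there on 0 of 8 arrays. The construct carried the coding region of ebf3, and whether the probe lies inside it is not given in the sources used here. The probe for noggin, the other injected frog mRNA, was likewise well above background in Cy5 on 0 of 8 arrays, and in Cy3 on 1 of the 4 active EBF3 arrays and 0 of the 4 DEX control arrays. Its log2 ratio on the active EBF3 arrays averaged 1.00 (limma adjusted p = 0.091). Neither probe thus gave measurable Cy5 signal from caps that had received its mRNA. How much of the Xebf-3 signal with DEX came from the cells' own gene was not tested.

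The ebf2-B probe was the one member that could be measured in both channels of all 8 arrays. On the active EBF3 arrays its Cy3 signal was 1290, 1174, 684 and 551 in replicates 1 to 4, against 434, 280, 54.6 and 86.9 in Cy5. On the DEX control arrays its Cy3 signal was 476, 274, 13.6 and 27.6, against 462, 282, 19.0 and 26.2 in Cy5. In the DEX control replicates of the 2-spot design 1 of 2 Cy3 spots was well above background. The log2 ratios were 1.57, 2.07, 3.65 and 2.66 on the active EBF3 arrays and 0.04, -0.04, -0.48 and 0.08 on the DEX control arrays. Cy3 and Cy5 were thus nearly equal on 3 of the 4 DEX control arrays, and every active EBF3 ratio lay above every control one.

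ebf2-B averaged 2.49 ± 0.89 on the active EBF3 arrays (SD, n = 4), which is 5.61-fold, and passed the test (SE 0.34, limma adjusted p = 0.013). It averaged -0.10 ± 0.26 on the DEX control arrays (SD, n = 4; limma adjusted p = 0.74). The difference between the groups was 2.59 (SE 0.41, limma adjusted p = 0.0077), with an exact permutation p of 0.0286. It was 1.82 within the 1-spot design and 3.36 within the 2-spot design. Without replicate 2 or without replicate 4 the difference was 2.75 and 2.59 and no longer passed (limma adjusted p = 0.068 and 0.079), and neither did the mean on the active EBF3 arrays, at 2.63 and 2.43 (limma adjusted p = 0.053 and 0.094).

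**Figure D2:**
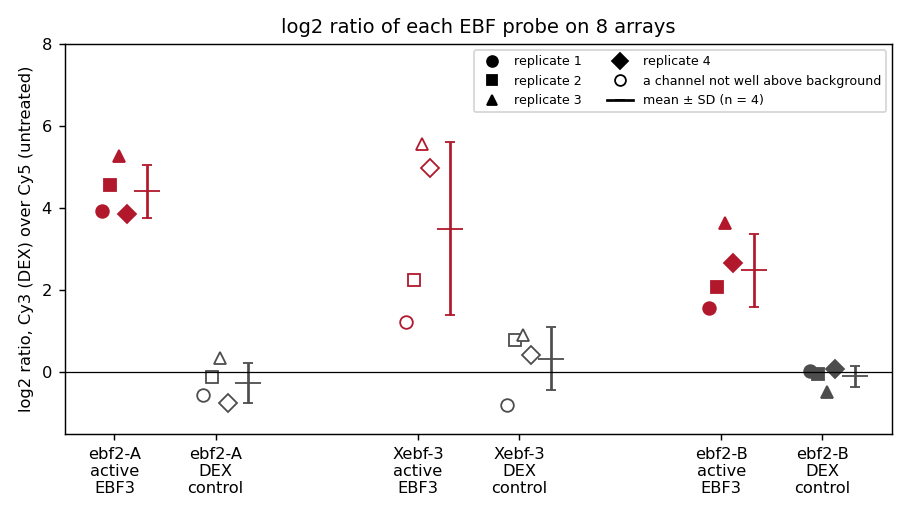
log2 ratio of Cy3 (caps with DEX) over Cy5 (untreated caps) for each EBF probe on the 4 active EBF3 and 4 DEX control arrays; symbols mark the replicate, open symbols have a channel not well above background, and the bars give the mean ± SD (n = 4). All active EBF3 ratios lie at 1.22 or above and all DEX control ratios at 0.90 or below.

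Counted together, 2 of 3 EBF probes, ebf2-A and ebf2-B, passed as higher with active EBF3, at an adjusted p under 0.05 and a change of at least 2-fold, and 0 as lower, where of the 21357 probes tested 3.03% were called higher, 2.84% lower and 5.87% in either direction. The same 2 were called higher in active EBF3 minus DEX control, where 2.42% of 21197 probes were called higher, 1.44% lower and 3.86% in either direction. In the DEX control group 0 of 3 were called by limma, as were 0 of the 21256 probes tested (0%), and 0 of 3 had an unadjusted p under 0.05. Among the 9606 probes tested that were well above background in both channels of all 4 active EBF3 arrays, ebf2-A ranked 16 and ebf2-B 113 by mean log2 ratio, counted from the highest. Xebf-3, with no measured Cy5 signal, was not ranked.

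The 2 ebf2 probes gave ratios of unequal size. Their Cy5 signals on the active EBF3 arrays also differed, at 157, 128, 24.2 and 80.8 for ebf2-A against 434, 280, 54.6 and 86.9 for ebf2-B. Whether the transcripts themselves rose unequally was not tested. On each active EBF3 array the log2 ratio of ebf2-A exceeded that of ebf2-B, by 2.37, 2.50, 1.62 and 1.20 in replicates 1 to 4, which is 1.92 ± 0.62 on average (SD, n = 4). An exact two-sided sign-flip permutation test gave p = 0.125, the smallest that 4 arrays allow. In the DEX control group the mean difference was -0.17 ± 0.73 (SD, n = 4; exact permutation p = 0.63), with ebf2-A the higher on 1 of 4. With normexp background correction and loess the active EBF3 means were 2.70 for ebf2-A and 1.56 for ebf2-B.

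The untreated caps were labelled as the same condition on both kinds of array, but the EBF probes did not read alike there. The Cy5 signal of ebf2-A was higher on the active EBF3 array than on the DEX control array of the same number in 4 of 4 replicates, by 0.83, 1.15, 3.29 and 1.68 on the log2 scale, where the median over all probes was 0.01, 0.10, 0.60 and 0.46. On the DEX control arrays the Cy5 signal of ebf2-A was well above background in replicate 4 alone, so the first 3 differences were taken against signals near background. In replicate 4, 1.18% of all probes had a Cy5 difference at least as large. For ebf2-B the Cy5 differences were -0.09, -0.01, 1.52 and 1.73, above the median over all probes in the 2-spot design alone. For Xebf-3 they were -0.36, 0.32, 1.37 and 0.72, all between signals not well above background. Over all 21197 probes 28.6% had the higher Cy5 signal on the active EBF3 array in 4 of 4 replicates, and of the 645 among them called higher with active EBF3, 49.8% did. A higher Cy5 signal lowers the log2 ratio of its array. What set these Cy5 signals apart was not tested.

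**Figure D3:**
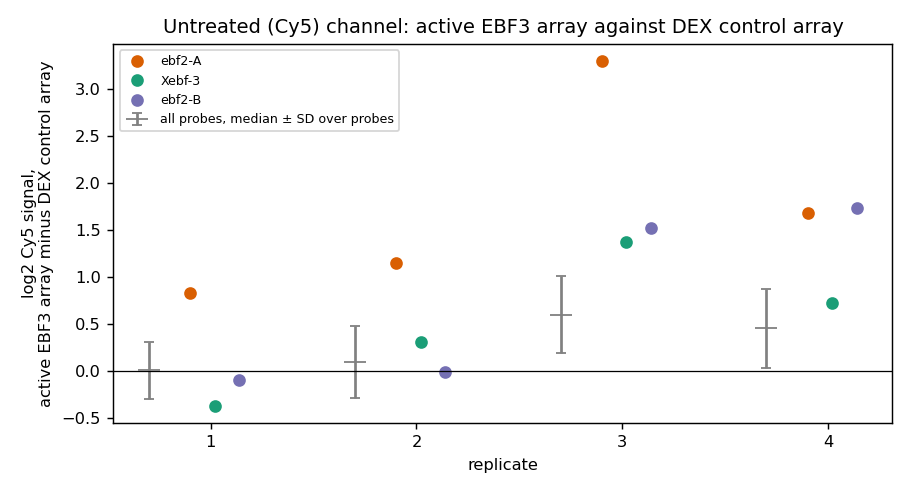
Difference in log2 Cy5 signal (untreated caps) between the active EBF3 array and the DEX control array of each replicate, for the 3 EBF probes, beside the median ± SD over all probes. ebf2-A lies highest in replicate 3, at 3.29, where its signal on the DEX control array was not well above background.

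With the Cy3 channel alone, scaled to the 75th percentile of each array, the active EBF3 arrays exceeded the DEX control arrays 70.6-fold for ebf2-A (limma adjusted p = 0.013), 10.6-fold for Xebf-3 (limma adjusted p = 0.15) and 8.58-fold for ebf2-B (limma adjusted p = 0.34). Only the ebf2-A value passed, and the values of ebf2-A and Xebf-3 were taken against control signals not well above background. The bound already given therefore applies to ebf2-A, and Xebf-3 has no firm bound. For ebf2-B the Cy3 signal before scaling was higher on the active EBF3 array by 1.44, 2.10, 5.65 and 4.32 on the log2 scale in replicates 1 to 4, with the larger differences in the 2-spot design.

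**Figure D4:**
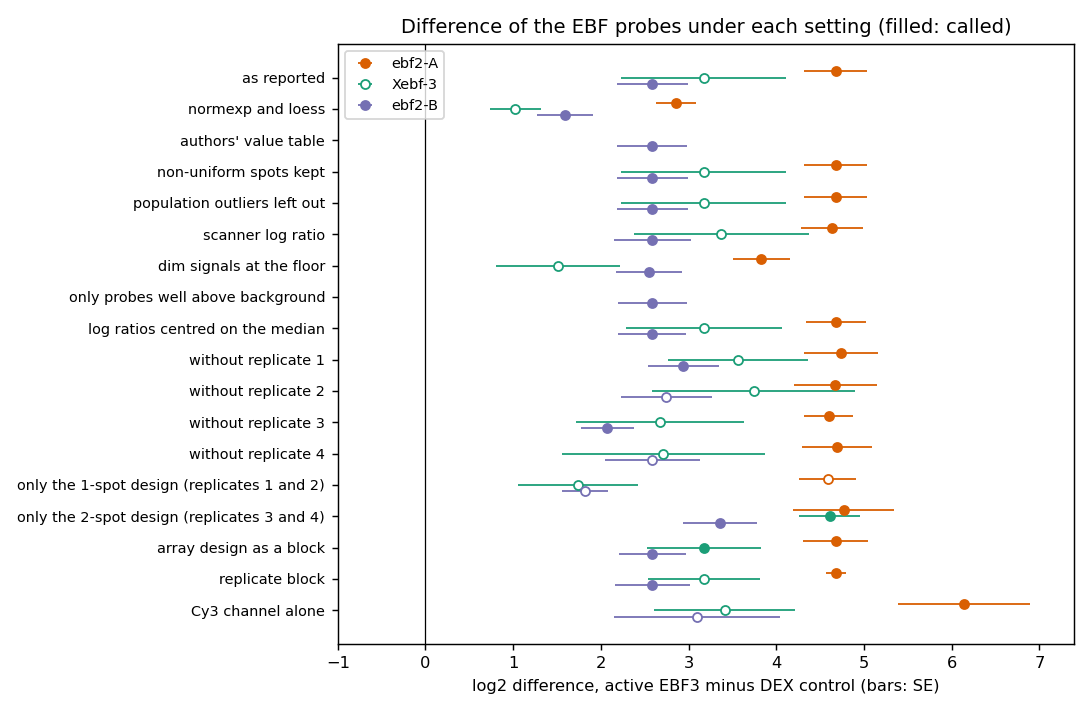
log2 difference of each EBF probe, active EBF3 minus DEX control, with its SE, for the reported fit and each other setting; filled points passed an adjusted p of 0.05 with at least 2-fold. All points lie to the right of 0, and ebf2-A runs from 2.86 with normexp to 6.14 with Cy3 alone.

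A list of EBF partner genes, which also held id genes for inhibitors of helix-loop-helix factors, gave 9 probes. With active EBF3, 2 of 9 were higher and 2 lower past the threshold, with a median log2 ratio of 0.20, against a median of 0.08 over all probes tested. The 2 lower were the inhibitor genes id4 and id3. In active EBF3 minus DEX control 1 was called higher and 1 lower. runx1 (aml1), which encodes a runt-domain factor that works beside EBF1 in mouse B cells, rose in both comparisons, with a mean log2 ratio of 4.47 on the active EBF3 arrays (SE 0.21, limma adjusted p = 0.00063) and 0.28 on the DEX control arrays. The study picked aml1 as a candidate target on these same arrays, so its rise is not independent evidence. id4, an inhibitor of helix-loop-helix factors of the E-protein class, fell by 2.72 on the log2 scale on the active EBF3 arrays (SE 0.37, limma adjusted p = 0.012) and differed from the DEX control by -2.60 (limma adjusted p = 0.012). Its Cy3 signal was well above background on 1 of 4 active EBF3 arrays, so the size of its fall is uncertain. foxo1, a forkhead factor, was called higher on the active EBF3 arrays at 1.79 (limma adjusted p = 0.021), and its difference from the DEX control, 1.52, did not pass (adjusted p = 0.057). id3, another such inhibitor, was called lower there at -1.04 (limma adjusted p = 0.028), with a difference of -0.58 that did not pass (adjusted p = 0.40). The E-protein gene tcf3 (e12), measured in both channels of all 8 arrays, had 0.05 on the active EBF3 arrays and 0.10 on the DEX control arrays. pax5, id2 and a crebbp-like probe were well above background in Cy3 on none of the active EBF3 arrays.

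Neuronal genes placed upstream or downstream of the EBF genes gave 17 probes. The study picked several of these genes on these same arrays, so their direction is not independent evidence. With active EBF3, 8 of 17 were higher and 1 lower past the threshold, with a median log2 ratio of 1.17. That median is the value of the delta-like 1 probe, which had 1.21 on the DEX control arrays. In active EBF3 minus DEX control the counts were 8 and 0, with a median of 0.37. The probe called lower was ncam1, with -1.51 on the active EBF3 arrays and -1.32 on the DEX control arrays. The neurogenin probes X-ngnr-1a and X-ngnr-1b, for the proneural factors upstream of the EBF genes, had mean log2 ratios of 0.39 and 0.06 on the active EBF3 arrays, against 0.01 and 0.07 on the DEX control arrays, and neither passed. Each was well above background in Cy3 on 2 of 4 active EBF3 arrays. The neuronal bHLH genes neurod1 and nscl-1 rose, with mean log2 ratios of 3.86 and 4.69 in the active EBF3 group (limma adjusted p = 0.0019 and 0.00045), against 0.22 and 0.10 on the DEX control arrays. On the DEX control arrays neither channel of this nscl-1 probe was well above background. A second nscl-1 probe (XHEN1) was not called, with 0.41 on the active EBF3 arrays and 0.43 on the DEX control arrays. It was not well above background in either channel of any array, so these ratios say little. A second neurod probe, for the clone BC072996, had 4.68 on the active EBF3 arrays and 0.24 on the DEX control arrays, where neither channel was well above background. Among genes of the neuronal cytoskeleton, nf-m(2) had 4.79 and peripherin (BC056020) had 5.19 on the active EBF3 arrays, against -0.74 and -1.42 on the DEX control arrays. Cy3 of nf-m(2) was not well above background on any DEX control array. The homeobox gene emx1 had 3.99 on the active EBF3 arrays and 0.52 on the DEX control arrays. A second peripherin probe (BC045209) did not move in the same way: it had -0.58 on the active EBF3 arrays and -0.29 on the DEX control arrays.

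**Figure D5:**
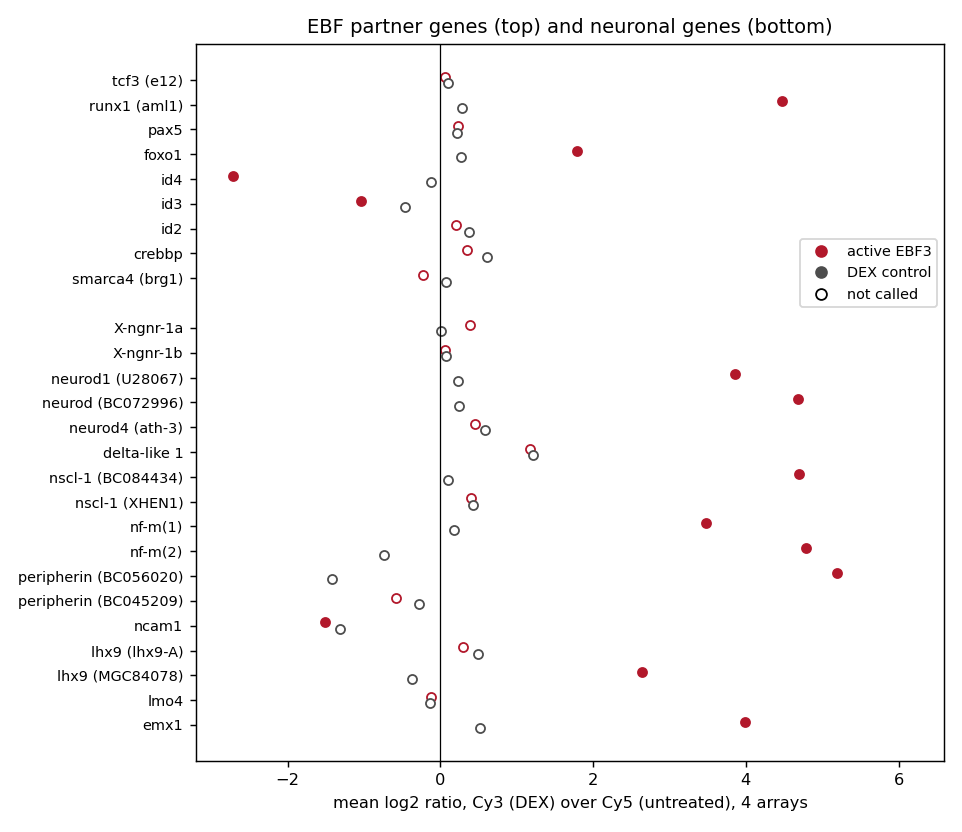
Mean log2 ratio (Cy3, caps with DEX, over Cy5, untreated caps; 4 arrays each) of the EBF partner genes and of the neuronal genes on the active EBF3 and the DEX control arrays; filled points were called. runx1 (4.47), which the study picked on these same arrays, lies highest in the partner list, and no point of the DEX control arrays is filled.

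Probes of other tissues also moved in the caps in which the EBF probes rose. Of 10 neural ectoderm probes 1 was higher and 4 lower past the threshold with active EBF3, of which 1 higher and 2 lower were also called in active EBF3 minus DEX control, and 9 were well above background in Cy5 on all 4 of these arrays. Of 4 epidermal probes limma called none on the active EBF3 arrays. There dlx5, higher at 1.17, had an unadjusted p under 0.05 with at least 2-fold, as had 908 probes higher and 820 lower of all 21357. The gastrula epidermal cytokeratin went the other way, at -0.78 (limma adjusted p = 0.018), short of 2-fold. Of 6 mesoderm and muscle probes 2 were called higher there, and of 5 blood and endothelium probes 3. The summed Cy3 signal of the mesoderm and muscle probes was 113279 to 177737 on the active EBF3 arrays, against 138 to 1107 on the DEX control arrays. That of the blood and endothelium probes was 25207 to 57769 on the active EBF3 arrays, against 118 to 10410 on the DEX control arrays. Those called were myod1 and myf5, with mean log2 ratios of 6.31 and 2.69 on the active EBF3 arrays against 0.90 and -0.60 on the DEX control arrays, and tal1, lmo2 and hhex, with 6.39, 5.60 and 5.39 against 0.45, -0.02 and -0.36. Each of these 5 was well above background in Cy3 on 4 of 4 active EBF3 arrays. Of the other defining markers, xbra, thylacine 1 and thylacine 2 were well above background in Cy3 on 0 of 4 active EBF3 arrays and gata1 on 1. But gata2 and tbx6 were well above background in both channels of 4 of 4 active EBF3 arrays and were not called. There gata2 had -0.59, against -0.53 on the DEX control arrays. tbx6 had 1.75 (limma adjusted p = 0.16), against -0.02. Of 4 endoderm probes 1 was called higher and none lower, and of 3 cement gland probes none higher and 1 lower. In such bulk caps fewer cells of a type and less RNA for each cell cannot be told apart, and the part of these genes' cells in the EBF signals was not tested.

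By likeness of the log2 ratios on the 8 arrays, taken as the root mean square difference over 21197 probes, the 5 probes nearest to ebf2-A lay within 0.49 to 0.57 of it. The nearest (0.49) has only a clone name in the files, and the study lists that clone as kcnk5, a potassium channel gene. The study chose it on these same arrays. Named in the files were pitx3-A (0.56), a homeobox gene known from the lens, and hspb7 (0.57), a small heat shock protein gene. These 2 had mean log2 ratios of 3.85 and 4.02 on the active EBF3 arrays and 0.03 and 0.08 on the DEX control arrays. The 5 nearest to Xebf-3 lay within 0.38 to 0.49, and 2 of them have a RefSeq symbol, kcnj10.L (0.38), a potassium channel gene, and kiaa1456l.S (0.44). The 5 nearest to ebf2-B, within 0.30 to 0.40, carry only clone names. Among the EBF probes, ebf2-A and Xebf-3 were 1.44 apart, with 169 probes nearer to ebf2-A. ebf2-A and ebf2-B were 1.48 apart, with 183 probes nearer to ebf2-A, and Xebf-3 and ebf2-B 1.25 apart, with 80 nearer to Xebf-3. This measure counts the size of a ratio as well as its pattern, and probes in a dim channel share the array's background.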

How the data were processed

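Per the labels and the study's methods, labelled cRNA of animal caps was hybridised to 2-colour Agilent arrays and each array read with Agilent Feature Extraction (version 9.1.3.1 per the labels; the file headers give 8.1.1.1 for replicate 1). The authors deposited, for each array, background-subtracted and LOWESS dye-normalised signal intensity of both channels, and a table of log10 ratios of Cy3 over Cy5. From the deposited intensities, log2 ratios of Cy3 over Cy5 were computed per spot. Control spots and non-uniform spots were left out, and the spots of a probe averaged. Where a signal did not exceed background the scanner software had put a surrogate in its place, so such a ratio says little. A probe was taken as well above background where at least 0.5 of its spots on that array were. For bounds, average signals were quantile-scaled between arrays.

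All probes with a value on every array of a comparison were fitted with limma 3.58.1 in R 4.3.3 (lmFit, eBayes; two-sided; Benjamini-Hochberg over all probes), for the active EBF3 arrays against 0, the DEX control arrays against 0 and active EBF3 minus DEX control; called means an adjusted p under 0.05 and at least 2-fold. The procedure was tested on simulated data. Only 4 arrays a group limit the precision. The members and gene lists were chosen with earlier results of these data known. Named genes are all members, the 5 probes nearest to each in root mean square difference where a gene name is given, and up to 6 of a list by size of change with active EBF3 among those called; the other probes named were chosen after their values were seen. Lists were matched by name in the files; genes not found so were not analysed here. Same-numbered arrays of the groups deviated together, which was taken from the data as pairing them: over probes, the 2 deviations from the group's mean had correlations of 0.59, 0.49, 0.37 and 0.57 in replicates 1 to 4.

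Alternatives were normexp (offset 50) with loess, the authors' value table, non-uniform spots kept, population outliers left out, a filter on dim probes, median centring, each replicate left out, each array design alone, design or replicate as a block, and a t-test after the methods. The methods name a t-test without its form, and here it was an unpaired test of log2 Cy3 against log2 Cy5 signals. The scanner's own log ratio, dim signals held at the lowest signal well above background, and Cy3 alone were added after seeing the data. The scanner's p-values and the study's comparison tables were not used.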

Additional observations from a re-analysis of the deposited data

How the results depend on the processing

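The counts of EBF probes called depended on the settings as follows. On the active EBF3 arrays, against 2 of 3 as reported, the count was 1 with the scanner's own log ratio, 1 in the 1-spot design alone and 1 to 3 with a replicate left out. By a t-test after the methods, run unpaired on the log2 signals of the 2 channels, it was 0. This form ignores that both channels share an array, and the methods do not state which form the study used. That test put 3 of 3 past its threshold before adjustment and left ebf2-A at an adjusted p of 0.060. The share of all probes past its unadjusted threshold is not given here. By limma, 908 higher and 820 lower of 21357 probes had an unadjusted p under 0.05 with at least 2-fold. In active EBF3 minus DEX control, against 2 of 3, it was 1 with the authors' value table and with only probes well above background (under both, ebf2-A and Xebf-3 had no value to test), 0 in the 1-spot design alone, 1 with Cy3 alone, and 1 to 2 with a replicate left out. With the array design as a block, and in the 2-spot design alone, it was 3 in both comparisons. On the active EBF3 arrays it was also 3 with the authors' value table, with median centring and with dim signals held at the lowest level. Those settings called more probes over all, 1392 of 13866, 1462 of 21357 and 1482 of 21357 in that order, against 1254 of 21357. The design block called 1619 there and 866 in the difference, against 819, and the 2-spot design alone 2961 and 690. On the DEX control arrays the count of EBF probes called was 0 under every setting run, of the members that could be tested there. With dim signals held, Xebf-3 (0.73, limma adjusted p = 0.00038) and ebf2-A (0.58, limma adjusted p = 0.018) missed only the 2-fold threshold there. So did Xebf-3 without replicate 1 (0.70, limma adjusted p = 0.043). The held level was higher in Cy3 than in Cy5 on every array, which raises the ratio of a probe dim in both channels. With the replicate block the difference kept 2 called, ebf2-A and ebf2-B, with 912 probes called over all against 819 without it, and Xebf-3 had an adjusted p of 0.054; the block changed no other call. Over all probes, the calls on the active EBF3 arrays ran between 113 in the 1-spot design and 2961 in the 2-spot design, against 1254, with 616 by normexp and loess, 690 with the scanner's log ratio and 274 by the unpaired t-test, and 475 to 1486 with a replicate left out. In the difference, against 819, they were 481 by normexp and loess, 225 with Cy3 alone, 0 in the 1-spot design and 363 to 793 with a replicate left out. On the DEX control arrays, against 0, they were 496 in the 2-spot design, 189 without replicate 1 and 70 with dim signals held at the lowest level. No EBF probe changed direction in either comparison with active EBF3 under any setting run, and the log2 values of the active EBF3 group ran from 2.70 to 4.59 for ebf2-A, 1.06 to 5.27 for Xebf-3 and 1.56 to 3.16 for ebf2-B. In active EBF3 minus DEX control they ran from 2.86 to 6.14, 1.02 to 4.61 and 1.59 to 3.36. Xebf-3 was called in 6 of 15 alternatives on the active EBF3 arrays and in 2 of 15 in the difference. The cause of these shifts was not tested. Signals not well above background limit ebf2-A, in Cy3 on the DEX control arrays, to a bound. They leave Xebf-3, dim in Cy5 on all arrays, without a firm fold or bound.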
